A study of Mus musculus with 4 samples.

Results

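The keratins and claudins were the 72 probes whose gene name on the array began with Krt or Cldn followed by a number, of 41174 probes in all. They covered 63 of 27573 gene names, 42 keratin genes with 49 probes and 21 claudin genes with 23 probes. The samples were the posterior ends of mouse embryos at 5 to 6 somites, cut behind the last somite, with 10 embryos of a genotype in a pool. The mutant was Cdx2+/-Cdx4-/-, heterozygous for the loss of Cdx2 and lacking Cdx4, which are homeobox factors of the growing posterior axis. It was set against wildtype embryos, and no treatment is given for either group. Each of 4 arrays on 1 slide carried RNA of both genotypes in 2 colours. By their labels they were replicate 1 (array 1), its dye swap (array 2), replicate 2 (array 3) and its dye swap (array 4). The labels do not say that the replicates came from separate pools of embryos, so the p-values cover the spread of hybridisations alone, and this may be technical.

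The direction of every ratio rests on Cdx4. The Cy5 over Cy3 log2 ratio of its probe was -2.59 on array 1, -2.11 on array 2, 2.82 on array 3 and 2.42 on array 4, while the labels alternate the dyes from array to array. Over the tested probes, array 1 correlated with array 2 at 0.82 and array 3 with array 4 at 0.87, and every pair across these had a correlation between -0.44 and -0.38. All ratios here were turned so that Cdx4 was lower in the mutant on each array. This is the direction given by the labels of arrays 1 and 4 and the opposite of the labels of arrays 2 and 3, so no direction is settled by the labels and every "higher" below becomes "lower" with the sign turned. In this direction Cdx2, of which the mutant keeps 1 copy, had a log2 ratio of -0.54 ± 0.097 (SE, limma adjusted p = 0.00198) and Cdx1 one of 0.40 ± 0.11 (limma adjusted p = 0.0314). T, a gene of the posterior mesoderm progenitors and notochord, was above background, with a log2 ratio of 0.15. Over arrays and genotypes, 50.1% to 64.5% of all probes were well above background.

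Keratins are the intermediate filament proteins of epithelial cells. A filament is built from pairs of 1 type I (acidic) and 1 type II (basic) keratin, so that Krt18 pairs with Krt8 in simple, single-layered epithelia and Krt14 with Krt5 in the basal layer of stratified epithelia. Claudins are the membrane proteins of tight junctions. Some seal the space between neighbouring cells, and others form pores for ions or water. At this stage the posterior embryo holds simple epithelia such as surface ectoderm, neural plate, gut endoderm and, at its border, visceral endoderm, and the stratified epidermis has not yet formed.

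All 7 genes called different in the comparison below had a promoter in the RefSeq tables (GRCm38.p6), as had 45 of the 63 member genes and 20 of the 29 genes tested. The 120 bases just before the start of each of the 7 genes, and of Krt8 as the filament partner of Krt18, are shown 5′ to 3′ because these genes differ in what their promoters hold. Capitals mark ATAAA, the AP-2 motif GCCNNNGGC and the Sp1 box GGGCGG, each read on both strands.
Krt5: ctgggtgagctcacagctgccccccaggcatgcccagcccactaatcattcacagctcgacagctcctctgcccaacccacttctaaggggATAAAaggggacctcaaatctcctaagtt
Krt14: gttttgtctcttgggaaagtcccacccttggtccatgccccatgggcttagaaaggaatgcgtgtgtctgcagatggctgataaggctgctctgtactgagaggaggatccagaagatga
Krt7: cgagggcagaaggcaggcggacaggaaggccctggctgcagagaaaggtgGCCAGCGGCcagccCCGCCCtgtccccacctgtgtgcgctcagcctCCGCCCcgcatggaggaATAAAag
Krt23: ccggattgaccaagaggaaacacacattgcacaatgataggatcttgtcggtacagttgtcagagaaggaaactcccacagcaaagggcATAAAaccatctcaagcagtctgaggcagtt
Krt18: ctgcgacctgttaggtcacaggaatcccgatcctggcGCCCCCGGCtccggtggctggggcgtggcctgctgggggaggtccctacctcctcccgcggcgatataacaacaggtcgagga
Krt8: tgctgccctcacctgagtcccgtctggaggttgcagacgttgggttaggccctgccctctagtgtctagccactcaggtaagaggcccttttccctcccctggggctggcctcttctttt
Cldn3: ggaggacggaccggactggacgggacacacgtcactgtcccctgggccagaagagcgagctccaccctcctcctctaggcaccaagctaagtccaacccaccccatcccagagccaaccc
Cldn5: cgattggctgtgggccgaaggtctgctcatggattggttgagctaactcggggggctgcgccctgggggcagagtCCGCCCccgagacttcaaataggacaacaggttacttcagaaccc

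The windows lay at chr15:101712906-101713025 (minus strand) for Krt5, chr11:100206031-100206150 (minus) for Krt14, chr15:101412283-101412402 (plus) for Krt7 and chr11:99493121-99493240 (minus) for Krt23. Those of Krt18, Krt8, Cldn3 and Cldn5 lay at chr15:102028096-102028215 (plus), chr15:102004343-102004462 (minus), chr5:134986094-134986213 (plus) and chr16:18776727-18776846 (plus). Krt5 and Krt23 each held ATAAA, at 29 and 31 bases before the start, and Krt7 at 7 bases. The AP-2 motif stood at 70 bases in Krt7 and at 83 bases in Krt18. The Krt14, Krt8 and Cldn3 windows held none of these letters, and Cldn5 held a Sp1 box on the reverse strand at 45 bases. The GC content ran from 46.67% (Krt23) to 68.33% (Krt7), against a median of 54.17% for the same window of all promoters.

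The shares of promoters with each motif were counted over the 250 bases before the start, and the families were not tested against each other. The TATA box TATAAA stood in 13 of 29 keratin promoters (44.83%) and in 1 of 25 claudin promoters (4%), against 12.37% of all 32851 promoters. ATAAA, which every TATAAA contains, stood in 23 keratin promoters (79.31%) and 8 claudin promoters (32%), against 37.26% of all. The Sp1 box stood in 2 keratin promoters (6.897%) and 12 claudin promoters (48%), against 32.74% of all. TTTATG, the core of the sites that Cdx proteins bind, stood in 12 keratin promoters (41.38%) and 2 claudin promoters (8%), against 10.76% of all. Every TTTATG, and its reverse complement CATAAA, contains ATAAA on one strand, so each of these matches is also an ATAAA match. Of the 7 called genes Krt23 held it, as CATAAA at 32 bases. The AP-2 motif was near the share of all promoters (13.73%), with 4 keratin and 3 claudin promoters. AACNGGTT, the grainyhead motif, stood in 1 claudin promoter (Cldn5, 20 bases before the start) and no keratin promoter, against 1.79% of all. Some genes have several promoters in the table, the keratin promoters of 1 cluster are related in sequence, and a match of letters is not a bound site.

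To be tested, a probe had to exceed background clearly on every array in the mutant channel, in the wildtype channel or in both. This held for 31 of the 72 member probes, from 29 genes, a share of 43.1% against 53.1% of all probes. By family it held for 19 of 49 keratin probes and 12 of 23 claudin probes. Of the 31, 24 were above background on every array in both genotypes. A further 5 were so only in the mutant channels (Cldn8, Cldn10, Cldn11, Krt1 and Krt35) and 2 only in the wildtype channels (Krt79 and Krt87), so their direction was partly set by the filter.

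The other 41 probes were not tested. Among them, 27 were not well above background on any array in either genotype, 19 of keratins and 8 of claudins. Only 3 of 18 probes of the hair and inner root sheath keratins passed, and Krt6a and Krt6b, of activated keratinocytes, Krt20, of intestinal and umbrella cells, and Krt4, of oesophagus, were below background throughout. Cldn1, a main sealing claudin of the epidermis, was not above background with either of its probes, and neither were Cldn13, Cldn16, Cldn17, Cldn18, Cldn22 and Cldn23. On each array more keratin probes were above background in the genotype that, as aligned, carried Cy5. The mutant channel had 27 and 23 on arrays 1 and 2 and 18 and 17 on arrays 3 and 4, and the wildtype channel had 20 and 18, then 28 and 27. The same held over all probes on the arrays, so it is no trait of keratins. There the mutant channel had 64.5%, 58.4%, 51.6% and 50.1% on arrays 1 to 4, and the wildtype channel 55.9%, 53.6%, 63.1% and 60.3%.

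The keratins and claudins that passed the test were all higher in the mutant. They were the simple-epithelial keratins Krt7, Krt18 and Krt23, the basal keratins Krt5 and Krt14, and the sealing claudins Cldn3 and Cldn5, each by 1.27-fold (Cldn5) to 1.40-fold (Krt23). No member was lower (limma, arrays averaged by labelled replicate, adjusted p under 0.05). An unadjusted limma p under 0.05 was found for 12 member probes, and for 3807 of all 21859 tested probes. Among the 12 were Krt79 and Krt87, which were tested only through their wildtype channels. Of 19 keratin probes 5 were higher and of 12 claudin probes 2 were higher, against 2.32% of all 21859 tested probes called higher and 3.35% called lower. With the sign turned these are 7 lower and 0 higher. A change in the number of cells of a type and a change in RNA per cell cannot be told apart in such pooled tissue.

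**Figure D1:**
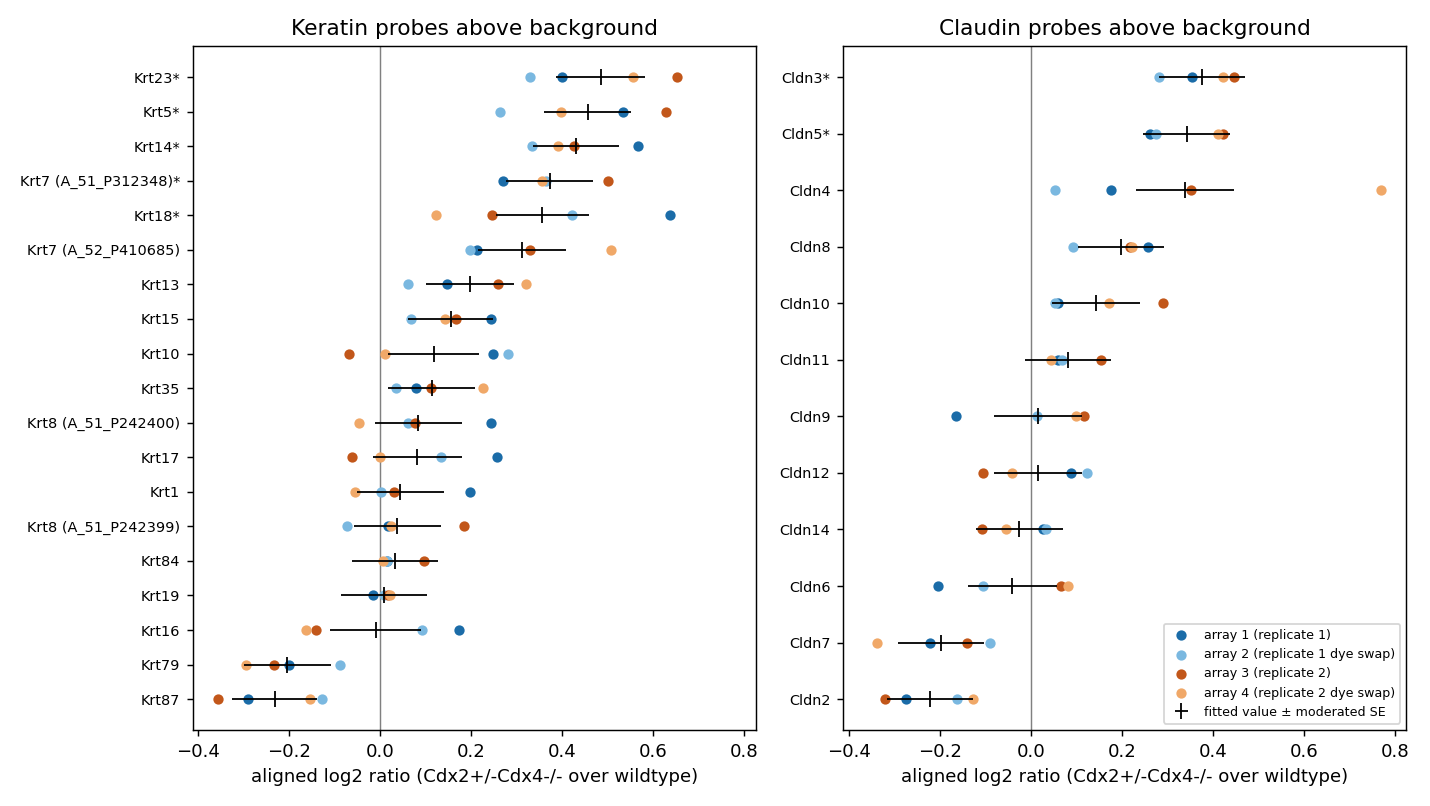
Aligned log2 ratios (mutant over wildtype) of the 31 tested keratin and claudin probes, with each array as a point and the fitted value with its moderated SE as a cross; an asterisk marks probes with a limma adjusted p under 0.05. The 5 called keratins and 2 called claudins lie right of 0 on all 4 arrays, while Krt87, Krt79, Cldn7 and Cldn2 lie left of 0 on all 4.

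The count of calls depends on how arrays are joined, while the fitted ratios do not. With arrays of opposite dye joined instead (1 with 3 and 2 with 4, a pairing that balances the dyes and here gives every probe the same SE of 0.052), 13 member probes were higher and 4 lower, where 19.4% and 18% of all probes were called. Of these, Cldn8 and Cldn10 (higher) and Krt79 and Krt87 (lower) had passed the filter only through the genotype in which they were high. With directions as labelled no member was called, where 4 (0.0189%) and 29 (0.137%) of 21115 probes were called higher and lower (402 had an unadjusted p under 0.05 in limma). Joining array 1 with 4 and 2 with 3 made 10 keratin and 5 claudin probes higher and 2 of each lower, where 26.6% and 23.7% of all probes were called. Cldn8, Cldn10, Krt79 and Krt87 were again among them, with Krt35, which was tested only through its mutant channels. Without array 1 none of the 7 passed (limma adjusted p from 0.0940 for Krt23 to 0.255 for Krt18), though their ratios stayed between 0.30 and 0.47. Without array 2 or array 3, Krt5, Krt14 and Krt23 still passed and Krt7, Krt18, Cldn3 and Cldn5 did not, and without array 4 Krt18 and Cldn5 did not. Centring each array on its median in place of loess moved the median of all tested probes from 0.0094 to 0.23, and then no probe was called.

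Type II keratins of simple epithelia are represented by Krt7, found in ducts, bladder and amnion, and by Krt8, the earliest keratin of the embryo. Krt7 (probe A_51_P312348) had normalised intensities of 2535 to 2824 in the mutant (median 2651) and 1998 to 2104 in wildtype (median 2066). The groups did not overlap. Its log2 ratios on arrays 1 to 4 were 0.27, 0.36, 0.50 and 0.36, with a fitted value of 0.37 ± 0.095 (limma adjusted p = 0.0254). The second Krt7 probe (A_52_P410685) gave 0.21, 0.20, 0.33 and 0.51, and with 0.31 ± 0.097 it missed the threshold (adjusted p = 0.0731). Both Krt7 probes were thus above 0 on every array.

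Krt8 did not differ from 0 by more than its error with either probe. Probe A_51_P242399 gave 0.017, -0.075, 0.18 and 0.023 on arrays 1 to 4, with a fitted value of 0.037 ± 0.095 (limma adjusted p = 0.917), and probe A_51_P242400 gave 0.24, 0.060, 0.075 and -0.048, with 0.083 ± 0.095 (adjusted p = 0.763). Its intensities ran from 54379 to 69111 in the mutant and from 53741 to 62507 in wildtype with the first probe, so the groups overlapped.

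Among the type I keratins of simple epithelia, Krt18, the partner of Krt8, was higher in the mutant. Its intensities were 75007 to 77507 in the mutant (median 76470) and 48741 to 68927 in wildtype (median 61520), with no overlap. The log2 ratios split into pairs, 0.64 and 0.42 on arrays 1 and 2 and 0.25 and 0.12 on arrays 3 and 4, and the fitted value was 0.36 ± 0.10 (limma adjusted p = 0.0485). The call was the least stable of the 7 and was lost when any single array was left out. Within each array the Krt18 ratio exceeded the Krt8 ratio, by 0.62, 0.49, 0.062 and 0.099 against the first Krt8 probe and by 0.39, 0.36, 0.17 and 0.17 against the second. The ratios of the partners thus differed in the same direction on 4 of 4 arrays, by 0.32 and 0.27 on average, and this difference was not tested.

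Krt23, a type I keratin of simple and glandular epithelia, had the largest ratio of all members in the loess values, though not with median centring or the scanner's processed signals. Its intensities were 386 to 418 in the mutant (median 399.9) and 254 to 319 in wildtype (median 288), with no overlap. The log2 ratios were 0.40, 0.33, 0.65 and 0.56 and the fitted value 0.48 ± 0.098, a 1.40-fold difference (limma adjusted p = 0.00579). Krt19, a type I keratin of simple epithelia that needs no fixed partner, lay near 0 on every array. Its ratios were -0.016, 0.0080, 0.016 and 0.021, with a fitted value of 0.0071 ± 0.094 (adjusted p = 0.989).

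**Figure D2:**
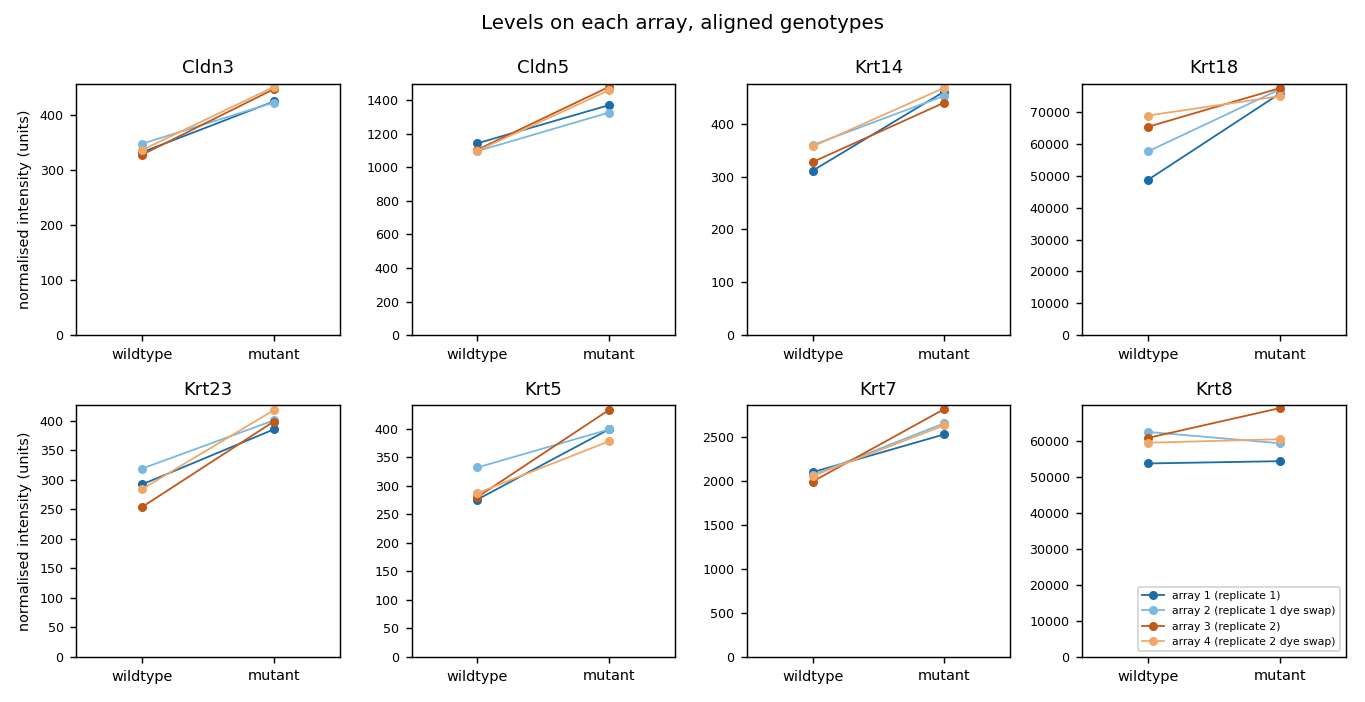
Normalised intensity (linear units, axis from 0) of the 7 called genes and Krt8 in the wildtype and mutant channels of each array, with a line joining the channels of 1 array. The mutant points of Krt5, Krt7, Krt14, Krt18, Krt23, Cldn3 and Cldn5 all lie above their wildtype points, and those of Krt8 do not. Axes differ between genes, and intensities of different probes are not comparable.

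The basal keratins Krt5 and Krt14 rose together. Krt5, the type II partner, had intensities of 378 to 433 in the mutant (median 399) and 276 to 332 in wildtype (median 284). Its log2 ratios were 0.53, 0.26, 0.63 and 0.40, with a fitted value of 0.46 ± 0.095 (limma adjusted p = 0.00705). Neither Krt5 nor Krt14 overlapped between genotypes. Krt14, the type I partner, had intensities of 440 to 468 in the mutant (median 457) and 311 to 359 in wildtype (median 342). Its log2 ratios were 0.57, 0.33, 0.43 and 0.39, with a fitted value of 0.43 ± 0.094 (adjusted p = 0.00991). The Krt5 and Krt14 ratios differed by 0.026 on average, with Krt5 above on 2 of 4 arrays.

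The other basal keratins tested did not pass. Krt15, of basal cells and hair follicle stem cells, had a fitted log2 ratio of 0.15 (limma adjusted p = 0.441) and was above 0 on all 4 arrays. Krt17, of activated keratinocytes and skin appendages, gave 0.26 and 0.13 on arrays 1 and 2 but -0.064 and -0.0017 on arrays 3 and 4 (fitted 0.081). Krt16, also of activated keratinocytes, split the same way, with 0.17 and 0.091, then -0.14 and -0.16 (fitted -0.010). In both, the sign differed between arrays 1 and 2 and arrays 3 and 4, which differ in labelled replicate and, as aligned, in the dye of the mutant, and these cannot be told apart.

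No suprabasal, mucosal or hair keratin passed the test. Krt13, of the oesophageal and oral lining, had 0.15, 0.062, 0.26 and 0.32 on arrays 1 to 4 (fitted 0.20, limma adjusted p = 0.307). Krt10, of differentiating epidermis, had 0.25 and 0.28 on arrays 1 and 2 and -0.069 and 0.011 on arrays 3 and 4 (fitted 0.12). Its type II partner Krt1 had a fitted value of 0.044 with the probe above background, and the hair keratins Krt35 and Krt84 had 0.11 and 0.033.

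The keratins with negative ratios on all 4 arrays were Krt79, of the hair canal, and Krt87, a hair keratin. Krt79 gave -0.20, -0.088, -0.23 and -0.30 (fitted -0.20, adjusted p = 0.273) and was above background in the mutant channel on 1 of 4 arrays. Krt87 gave -0.29, -0.13, -0.36 and -0.15 (fitted -0.23, adjusted p = 0.190) and was above background in the mutant channel on 2 of 4 arrays. Their levels did not overlap between genotypes, with Krt87 at 181 to 184 in the mutant and 199.6 to 235 in wildtype, and Krt79 at 165 to 173 and 182 to 202. Both were tested only through their wildtype channels, so this direction was partly set by the filter. Of all tested probes, 12.1% had the mutant below without overlap.

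Among the 19 keratin probes the median log2 ratio was 0.11, and it was 0.15 over those above background in both genotypes, beside 0.0094 over all tested probes. Ratios were above 0 on all 4 arrays for 10 keratin probes and below 0 on all 4 for 2, against 22.5% and 19.4% of all tested probes. Levels of the genotypes did not overlap for 10 keratin probes, 8 with the mutant above and 2 below, against 12.8% and 12.1% of all tested probes. In both counts the 2 below were Krt79 and Krt87, which were tested only through their wildtype channels, and so had to lie low in the mutant. Krt35, among the 10 above 0 on all 4 arrays, was tested only through its mutant channels.

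All keratin probes lay in the clusters of keratin genes on chromosomes 11 and 15, by the mm8 positions in the scanner files. The chromosome 11 cluster of type I genes, from 99050073 to 100081503, held 26 probes, of which 9 were tested and 2 were higher (Krt23 and Krt14). The chromosome 15 cluster of type II genes, from 101176492 to 101860003, held 23 probes, of which 10 were tested and 3 were higher. These were Krt7, Krt5 and Krt18, the one type I gene of that cluster, which lies next to Krt8. The higher probes were not adjacent to each other within either cluster. Most member probes spanned 60 bases (61 of 72), and 9 spanned more on the genome.

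**Figure D3:**
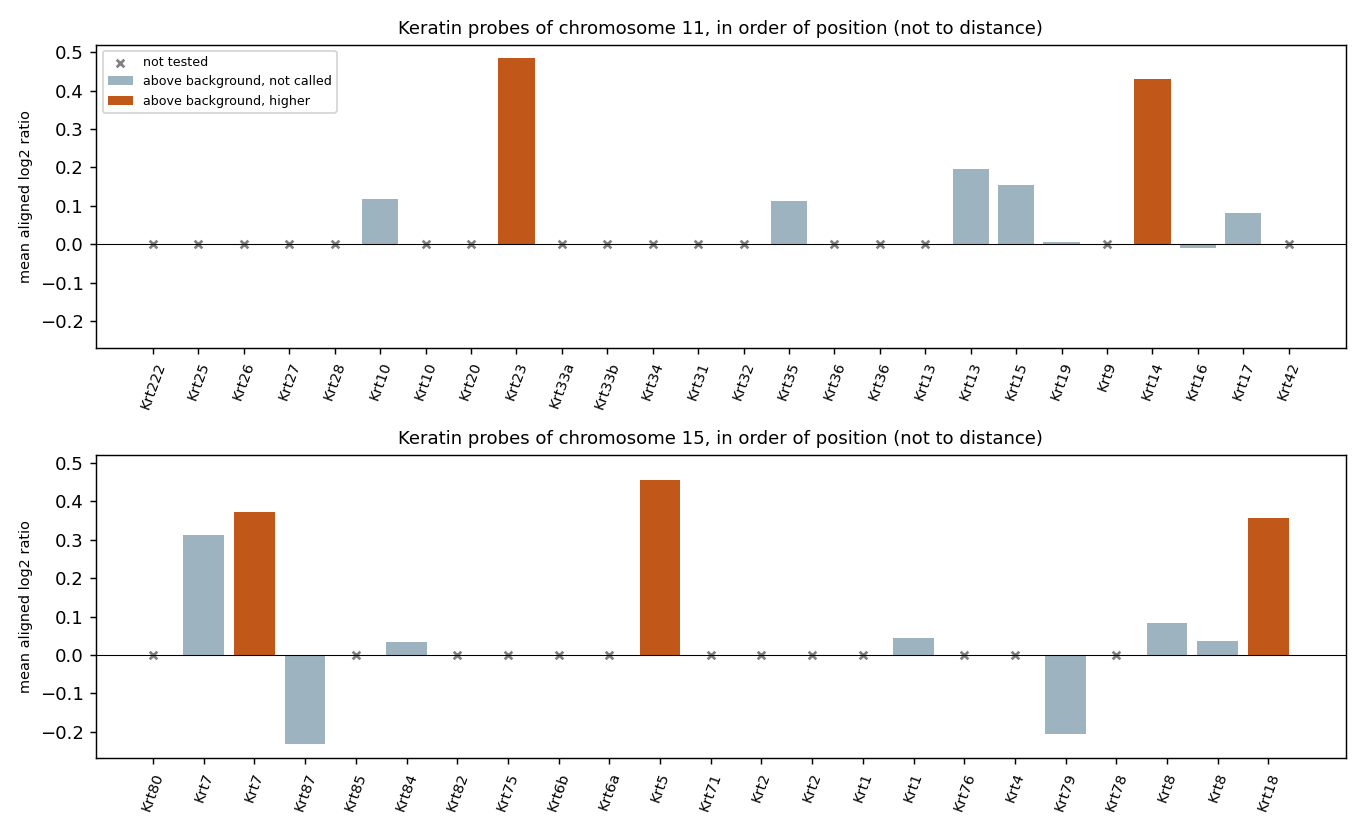
Mean aligned log2 ratio of keratin probes in their order along the chromosome 11 and chromosome 15 clusters, spaced evenly and not by distance; crosses mark probes not tested and orange bars those called higher. The called Krt23 and Krt14 stand among probes that were not tested or not called, and so do Krt7, Krt5 and Krt18.

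Of the sealing claudins, Cldn3, found in most tight simple epithelia, and Cldn5, the main claudin of endothelial cells, rose in the mutant. Cldn3 had intensities of 423 to 451 in the mutant (median 436) and 328 to 348 in wildtype (median 334). Its log2 ratios were 0.35, 0.28, 0.45 and 0.42, with a fitted value of 0.38 ± 0.095 (limma adjusted p = 0.0238). Cldn5 had intensities of 1325 to 1478 in the mutant (median 1414) and 1095 to 1142 in wildtype (median 1101), and its ratios were 0.26, 0.28, 0.42 and 0.41 (fitted 0.34 ± 0.096, adjusted p = 0.0415). Neither gene overlapped between genotypes.

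Cldn4, a sealing claudin that lies near Cldn3 on chromosome 5, was uneven between arrays. Its ratios were 0.18, 0.053, 0.35 and 0.77, with a fitted value of 0.34 ± 0.11 (limma adjusted p = 0.0790), and its levels overlapped, with a median of 224 and a highest value of 341 in the mutant and a range of 177 to 202 in wildtype. Without array 4 its ratio was 0.23. Cldn3 exceeded Cldn4 by 0.18, 0.23 and 0.095 on arrays 1 to 3 and lay 0.35 below it on array 4 (a difference of -0.35).

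Cldn7, a broadly expressed epithelial claudin, had a ratio below 0 on every array. Its ratios were -0.22, -0.090, -0.14 and -0.34 (fitted -0.20 ± 0.095, limma adjusted p = 0.291), and its levels overlapped slightly, at 2035 to 2599 in the mutant and 2573 to 2768 in wildtype. Cldn6, a claudin of embryonic epithelia and pluripotent cells, had ratios of -0.20 and -0.11 on arrays 1 and 2 and 0.066 and 0.081 on arrays 3 and 4 (fitted -0.041), split between the same pairs of arrays. Cldn9, its neighbour on chromosome 17, had a fitted value of 0.016.

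Cldn8, a sealing claudin of the distal nephron, had ratios of 0.26, 0.094, 0.22 and 0.22 (fitted 0.20, limma adjusted p = 0.289), and its wildtype channel was above background on 3 of 4 arrays. Cldn11, of myelin and Sertoli cells, and Cldn14, of the inner ear and kidney, had fitted values of 0.082 and -0.025. Cldn12 had 0.016.

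The pore-forming claudins tested differed in sign. Cldn2, a pore for cations and water, gave -0.27, -0.16, -0.32 and -0.13 (fitted -0.22 ± 0.094, limma adjusted p = 0.219). Cldn10 gave 0.060, 0.052, 0.29 and 0.17 (fitted 0.14, adjusted p = 0.504). Over all 12 claudin probes the median log2 ratio was 0.049, and over the 9 above background in both genotypes it was 0.016. Claudin levels did not overlap for 4 probes, all with the mutant above (Cldn3, Cldn5, Cldn8 and Cldn10), where 12.8% of all tested probes had the mutant above and 12.1% below. Of these, Cldn8 and Cldn10 passed the filter only through the mutant channels.

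**Figure D4:**
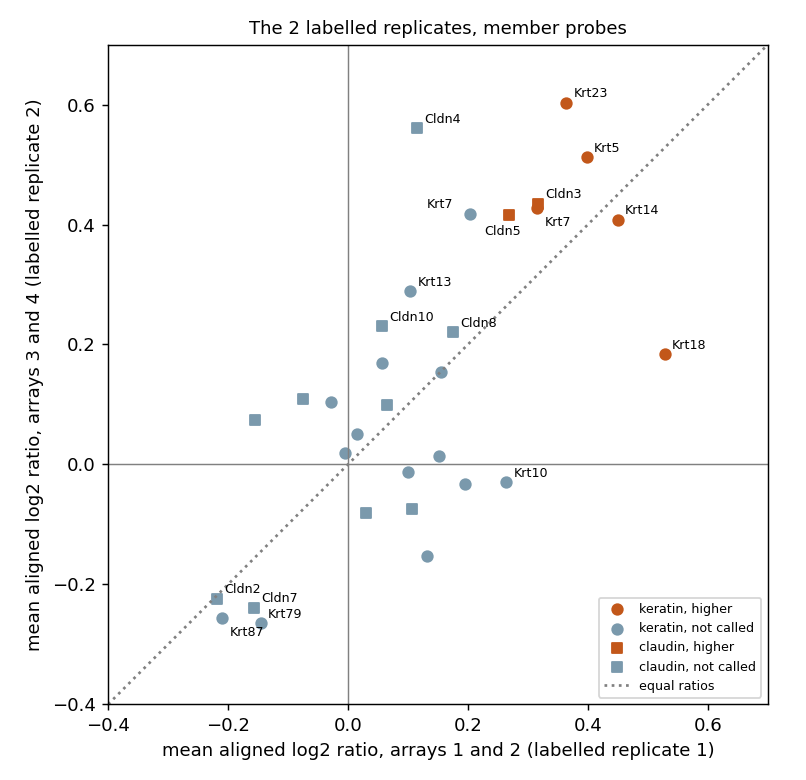
Mean aligned log2 ratio of each tested probe on arrays 1 and 2 (x axis, labelled replicate 1) against arrays 3 and 4 (y axis, labelled replicate 2), with keratins as circles, claudins as squares and called probes in orange. Krt18 lies below the line of equal ratios (0.53 against 0.18) and Cldn4 above it (0.12 against 0.56), and Krt14 lies close to it.

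The scanner's own processed signals, to which no offset is added, gave larger ratios for dim probes. With them Krt23 was at 0.96, Krt5 at 0.85, Krt14 at 0.75 and Cldn3 at 0.67, all still called. Krt7, Krt18 and Cldn5 were at 0.36, 0.38 and 0.37 and were no longer called (adjusted p from 0.107 to 0.120). Cldn4 (1.08), Cldn8 (1.06), Cldn10 (0.68), Cldn11 (0.53), Krt15 (0.61) and Krt35 (0.67) were then higher, and Krt79 (-1.35) and Krt87 (-0.96) lower, so that 5 keratins were higher and 2 lower, and 5 claudins higher, against 2.96% of all probes called higher and 5.96% lower. Cldn8, Cldn10, Cldn11, Krt35, Krt79 and Krt87 had passed the filter only through the genotype in which they were high, so nothing is read from their direction. The medians became 0.29 for keratins and 0.18 for claudins. Krt8 had 0.058 and 0.064 with its probes.

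Of 18 tested genes of tight junctions and apical polarity, the proteins that claudins work with, 0 were higher and 1 was lower, each taken at its brightest probe. These counts are near the share over all 14874 genes, of which 2.9% were called higher and 3.89% lower. The lower gene was Amot, angiomotin, a polarity and Hippo pathway protein that is also abundant in visceral endoderm, at -0.87 ± 0.099 (limma adjusted p = 2.77e-05). Among the genes not called, Jam2, a junctional adhesion molecule, was at 0.10, Tjp1, the scaffold protein ZO-1, at -0.034 and Ocln, occludin, at -0.13. Their median was -0.023.

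The anchors of keratin filaments showed no call. Of 17 genes of desmosomes, adherens junctions and the cornified envelope, none passed in limma with arrays averaged by labelled replicate. This is near the share over all 14874 genes, of which 2.9% were called higher and 3.89% lower. With the dye-balanced pairing 5 were higher and 6 lower, where 21.6% and 18.7% of genes were called. Desmoplakin (Dsp), which ties keratins to desmosomes, was at -0.30 with its brightest probe and between -0.17 and -0.071 with its other probes. Pkp2 and Cdh1, E-cadherin, were also at -0.30, while Pkp1 was at 0.24 and Jup, plakoglobin, at 0.19. Jup was uneven, with -0.050 and -0.041 on arrays 1 and 2 and 0.52 and 0.35 on arrays 3 and 4. Of 12 other intermediate filament genes none was called, which is again near the 2.9% and 3.89% of all genes. Nes, nestin, was at 0.076 and Des, desmin, at 0.23, and the median of the 12 was 0.020. Nes and Des were uneven on arrays 1 to 4, with 0.16, 0.23, 0.0031 and -0.084 for Nes and 0.049, 0.022, 0.49 and 0.38 for Des.

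Among 18 epithelial regulators, Tfap2c, an AP-2 factor of ectoderm and trophoblast, was higher at 0.45 ± 0.094 (limma adjusted p = 0.00682), and no other was called. Over all genes 2.9% were called higher and 3.89% lower. Of the 18 regulators, 9 had ratios above 0 and 9 below, with a median of 0.014. The others ran from -0.22 (Klf4, a factor of epidermal barrier formation) to 0.30 (Rab25), with Trp63, the p63 factor of basal epithelia, at 0.15, Grhl1 at -0.11 and Grhl2 at 0.19. Grhl3 was not tested.

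Markers of other cell types in the cut tissue were read beside the members. These lists were chosen with earlier results of these data known, so their counts are no independent result about the tissue. Over all genes, 2.9% were called higher and 3.89% lower. Of 19 visceral endoderm markers, 18 were lower in the mutant, with a median of -0.69. Their summed intensity was 65831 to 68546 in the mutant and 125203 to 136046 in wildtype. In this and the sums below, the brightest probes weigh most. The largest differences were Afp (-2.04), Cubn (-1.12), Rbp4 (-1.07), Spp2 (-0.93), Apoa1 (-0.88) and Lrp2 (-0.86, and -0.74 to -0.17 with its other probes), and every marker of the list was above background in the test. Visceral endoderm is a simple epithelium that makes keratins and claudins of its own, and its part in the member values was not tested.

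Endothelial markers fell for 5 of 14 genes (against 3.89% of all genes), Kdr (-0.97), Etv2 (-0.72), Sox7 (-0.48), Sox18 (-0.43) and Egfl7 (-0.39). Their summed intensity was 18143 to 18579 in the mutant and 23007 to 24583 in wildtype. Cldn5, an endothelial claudin, was higher in the same RNA. The 9 endothelial markers not called ran from -0.23 (Cdh5, the endothelial cadherin) to 0.26 (Emcn, endomucin), and the part of endothelium in the Cldn5 value was not tested.

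Of 9 surface ectoderm markers 1 was higher (against 2.9% of all genes), Wnt6 at 0.39 (0.52 with its second probe), and the median was 0.056. Their summed intensity was 11385 to 12714 in the mutant and 10444 to 10742 in wildtype, and the brightest of the 9 genes weigh most in it. The part of surface ectoderm in the Krt5 and Krt14 values was not tested. Of 11 gut endoderm markers 2 were lower (against 3.89% of all genes), Hhex (-0.56, and -0.11 with another probe) and Cpm (-0.39). In all, 8 of the 11 had ratios above 0 and 3 below. Those not called ran from -0.17 (Isl1) to 0.32 (Trh). The gut endoderm median was 0.060, with summed intensities of 14482 to 15565 in the mutant and 14755 to 16137 in wildtype. Of 6 notochord and node markers 2 were higher (against 2.9% of all genes), Car3 (0.38) and Nodal (0.33), with summed intensities of 3863 to 4151 and 3461 to 3561.

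Of 8 trophoblast and decidua markers 1 was higher (against 2.9% of all genes), Prl3d1 (0.33), and 2 were lower (against 3.89%), Prl8a2 (-1.41) and Plac1 (-0.47). Of the 8 markers, 6 had ratios above 0 and 2 below, with a median of 0.057. Their summed intensities, in which the brightest probes weigh most, were 3106 to 3240 in the mutant and 3598 to 4037 in wildtype. Trophoblast also expresses Krt7, Krt8 and Krt18, and its part in those values was not tested.

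**Figure D5:**
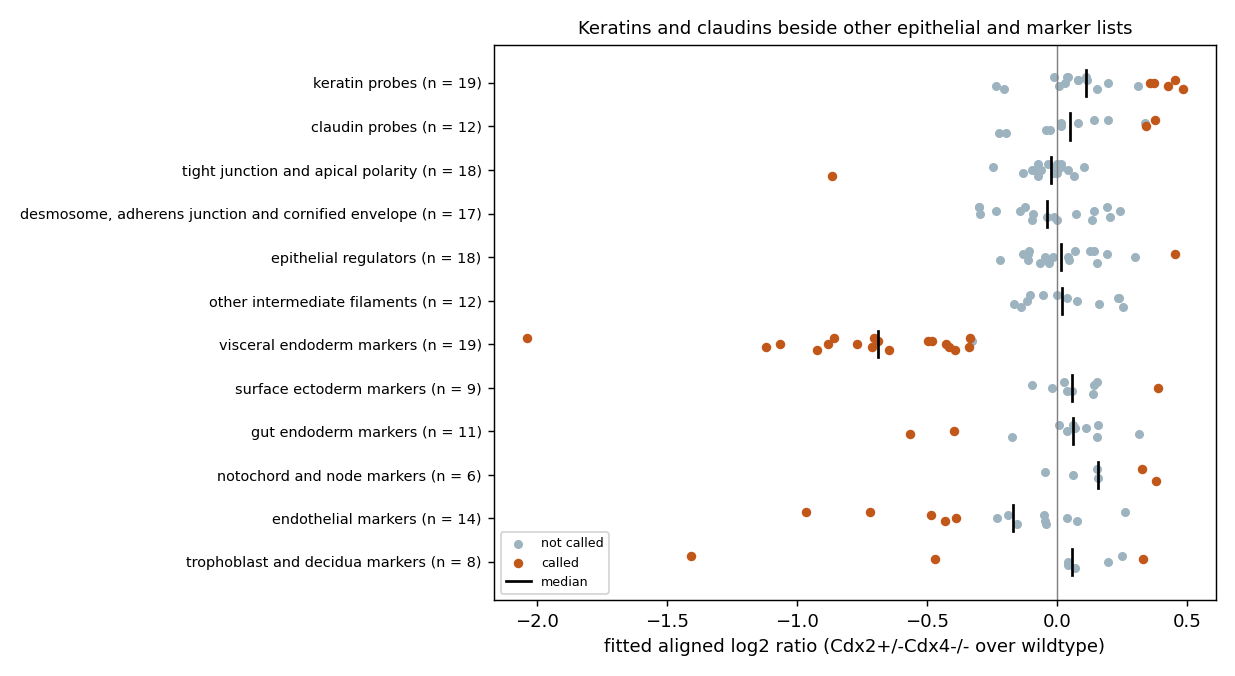
Fitted aligned log2 ratio of the keratin and claudin probes and of the genes of 10 other lists, 1 point per probe or gene, with the median as a bar and called points in orange. The 19 visceral endoderm markers lie left of 0 around -0.69, while keratins (0.11) and claudins (0.049) have medians right of 0 beside junction lists at -0.023 and -0.040. The lists were chosen with earlier results of these data known.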

How the data were processed

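Per the submitters' processing notes the authors used Agilent Feature Extraction 9.5.3, and its files hold an intensity per spot for each colour and its background, per the file headers. A log10 ratio and its p-value stand beside them, per the file headers. The series table repeats these deposited log10 values (tolerance 1e-05), with the sign turned on the dye swaps.

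Mean and background intensities were corrected by normexp (offset 50) and normalised by loess in limma 3.58.1 (R 4.3.3), with control spots at weight 0. Outlier spots (103 to 167 per array) were dropped, and saturated ones (0 to 7 per channel) were kept. Ratios were turned by the Cdx4 probe, arrays 1 and 2 and arrays 3 and 4 were averaged, and both means were fitted with lmFit and eBayes (1 residual and 17.0 prior degrees of freedom, so each SE is largely pooled over probes). This keeps the labelled replicate numbers and leaves dye bias in the spread. P-values were adjusted by Benjamini-Hochberg over 21859 probes, with a threshold of 0.05. Normalised intensities are loess and Aquantile values that include the offset. The number of arrays limits the precision of every value.

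Symbols came from a RefSeq table (GRCm38.p6); the scanner file's Krt2-25 is Krt87. Promoters are from RefSeq, and positions of probes are on mm8, per the file headers. ATAAA was added to the motifs after the sequences were seen. Members and gene lists were chosen with earlier results of these data known. Every tested member is named; from the other lists genes past the threshold are named (6 at most, those with the largest ratios), and other genes of those lists named with values were chosen for their role after their values were seen. The alternatives, 14 of them with a test, were other pairings, directions as labelled, median centring, processed signals, an offset of 16, the series table, other filters, 1 probe per gene and leaving out each array. The fit was tested on simulated data.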

Additional observations from a re-analysis of the deposited data

Results flagged for a closer look

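In 96 groups of 4 array values (the aligned log2 ratios of member probes and of other named probes), 4 had an array far from the other 3 by Dixon's ratio, which chance marks in about 1 of 20 groups. The array standing apart was array 3 in each. The Cldn19 probe A_52_P23661 had 1.20 on array 3 and between -0.0098 and 0.023 on the others. The Krt1 probe A_51_P416669 had -0.18 on array 3 and between 0.021 and 0.038 on the others. The Krt28 probe had 0.24 on array 3 and between -0.0062 and 0.015 on the others. These 3 probes were not tested, because neither genotype was above background on all 4 arrays. The Krt84 probe, which was tested, had 0.095 on array 3 and between 0.0067 and 0.014 on the others.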

How the results depend on the processing

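The ratios of the 7 called members stayed above 0 under every alternative run except directions as labelled, in which Krt23 (-0.0062), Krt7 (-0.059) and Cldn5 (-0.0059) turned. Krt5, Krt14 and Krt23 kept their call in 10 of 14 alternatives, Cldn3 in 8, Krt7 in 6, Cldn5 in 5 and Krt18 in 4; the cause was not tested.

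Against 5 keratin probes higher and 0 lower, 2 claudin probes higher and 0 lower and 1240 among all probes called, the dye-balanced pairing gave 8, 2, 5, 2 and 8187. The third pairing (arrays 1 with 4, 2 with 3) gave 10, 2, 5, 2 and 10987. Directions as labelled left 0 keratins and 0 claudins higher and 33 probes in all, and median centring left 0, 0 and 0 (507 higher and 733 lower in the loess values). Testing all probes without the filter on dim ones left 0, 0 and 16. The processed signals and the authors' series table each gave 2 keratins lower, 5 claudins higher and 1948 probes in all. The counts for the other pairings, the processed signals and the series table include probes tested only through the genotype in which they were high. Both lower keratins, Krt79 and Krt87, are among these. Leaving out 1 array at a time gave 0 to 4 keratins higher, 0 to 1 claudins higher and 189 to 977 probes in all.

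The medians also moved. The keratin median of 0.11 became 0.015 with directions as labelled, 0.40 with median centring and 0.29 with the processed signals or the series table. The claudin median of 0.049 became 0.22 with median centring and 0.18 with the processed signals or the series table. With median centring the median of all tested probes itself moved from 0.0094 to 0.23, so the claudin median was then near that of all probes.

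With directions as labelled, signs also turned for Cldn2 (0.020), Cldn9 (-0.048), Cldn10 (-0.028), Cldn11 (-0.029), Cldn14 (0.012), Krt8 (-0.017), Krt16 (0.015), Krt19 (-0.0047), Krt84 (-0.022), Cdx1 (-0.050), Amot (0.032), Tfap2c (-0.0072), Afp (0.010), Cubn (0.0083), Rbp4 (0.082), Apoa1 (0.0078), Cpm (0.030), Egfl7 (0.013), Plac1 (0.0073) and Prl3d1 (-0.0060). Median centring turned Cldn6 (0.32), Cldn7 (0.22), Cldn14 (0.011), Krt16 (0.087), Cpm (0.037) and Egfl7 (0.075). The processed signals and the series table turned Cldn9 (-0.0049), Cldn12 (-0.0089) and Krt16 (0.070). Leaving out an array or a labelled replicate gave -0.012 to 0.099 for Krt1, -0.076 to 0.11 for Cldn9, -0.15 to 0.13 for Krt16 and -0.029 to 0.10 for the first Krt8 probe, across 0 in each. Leaving out a replicate also turned Krt10 (-0.029), Krt17 (-0.033), Cldn12 (-0.074) and Cldn6 (0.074) without replicate 1, and Krt19 (-0.0042) and Cldn14 (0.030) without replicate 2. Single arrays turned Krt1 without array 1 (-0.0051), Cldn9 (-0.028) and Krt16 (0.0099) without array 2, and Krt8 without array 3 (-0.0027).

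No further pairing was added because both genotypes share each array, so every ratio already compares them within a labelled replicate. Probes near background, such as Krt35, Krt79 and Krt87, have ratios that the background correction sets in part.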
